A study of Mus musculus with 8 samples.

Results

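The genes described here are 9 components and receptors of the complement system, out of 35583 genes in the deposited tables. They were chosen by name from the tables' gene symbols: the C1q chains C1qa, C1qb and C1qc, the later components C3 and C4b, and the receptor genes C3ar1, C5ar1, Itgam and Itgb2. All 9 symbols were found, and 8 of them had enough reads to be tested.

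Complement is a cascade of proteins that tags particles for uptake by phagocytes. In the classical pathway C1q, a bouquet of collagen-like stems and globular heads built from equal parts of A, B and C chains, binds a target and triggers cleavage of C4 and then of C3. The fragments coat the target or act on receptors, and microglia, the resident macrophages of the brain, are the main brain source of C1q.

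The young wild-type mice had received plasma protein coupled to a dye, and 20 hours later their hypothalamic microglia were isolated by sorting. One group of 4 libraries (plasma-positive) came from microglia that carried the labelled protein, and the other 4 (plasma-negative) from microglia that did not, per the sample titles, so both groups come from injected animals. The sex of the mice, pooling of animals and whether equal replicate numbers mark the same animal are not given in the sources used here, so p-values measure the spread between these libraries. RNA was made into full-length cDNA libraries with Smart-seq2, which carries no molecular identifiers.

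Library totals ran from 2963094 counts (plasma-negative replicate 4) to 21422738 counts. The 10 microglial marker genes together made up 67570, 69420, 68000 and 80190 CPM in plasma-negative replicates 1 to 4. CPM is reads of a gene per 1000000 reads, after TMM scaling of library sizes. In plasma-positive libraries these markers made up 75290 to 81250 CPM, a range that only plasma-negative replicate 4 reached. Of the 10, 2 were higher and 0 lower at an edgeR adjusted p under 0.05, where 0.844% of all tested genes were higher. The 2 were Olfml3 and Csf1r, at log2 fold changes of 0.37 and 0.28 without any length correction (edgeR adjusted p = 0.00647 and 0.0049). Cx3cr1 was lower, at -0.11, and did not pass (edgeR adjusted p = 0.232). Markers of other cells were low, and 2 libraries stood apart. Plasma-positive replicate 3 held 1212 CPM of the neutrophil list, against 282 to 383.5 CPM elsewhere, where Csf3r gave nearly all of it. Plasma-positive replicate 2 held 295 CPM of the neuron list, against 4.04 to 66.5 CPM elsewhere. Across genes, shorter transcripts were relatively more abundant in plasma-positive libraries. Over 5176 genes, Spearman's rho between exon length and the log2 fold change was -0.457, so values with a per-library correction for exon length and GC content are given as well. Bulk libraries cannot tell more RNA per cell from more cells of a kind.

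The C1q genes lie side by side on the minus strand of chromosome 4 (mm10). In the deposited tables C1qb (ENSMUSG00000036905) runs from 136880129 to 136886187, C1qc (ENSMUSG00000036896) from 136889804 to 136893065 and C1qa (ENSMUSG00000036887) from 136895917 to 136898803. Gaps of 3616 and 2851 bases separate them. Since the 3 genes are neighbours and each was called higher before that correction, bases before the starts of C1qb and C1qc are shown, from RefSeq on GRCm38.p6. Each stretch lies outside the exons of GENCODE M21, at chr4:136886201-136886350 for C1qb and chr4:136893066-136893164 for C1qc, minus strand, 5′ to 3′. Capitals mark matches to GAGGAA, a core of binding sites of PU.1, the macrophage ETS factor, read on either strand.
C1qb: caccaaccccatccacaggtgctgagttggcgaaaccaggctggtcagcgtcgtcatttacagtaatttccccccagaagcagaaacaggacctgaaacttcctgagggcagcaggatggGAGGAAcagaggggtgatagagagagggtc
C1qc: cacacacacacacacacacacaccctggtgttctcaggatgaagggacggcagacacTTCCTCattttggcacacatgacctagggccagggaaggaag

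RefSeq entries were matched for 6 of the 9 genes. The C1qb match begins 30 bases before the RefSeq start, on the gene's own strand. The C1qc match begins 193 bases before it, on the opposite strand, and extends to GAGGAAGT there. Of 32851 mouse promoters, 23.3% hold GAGGAA and 2.44% hold GAGGAAGT on either strand within 250 bases before the start. Itgam held GAGGAA at 84 and 15 bases before its start, 1 on each strand, and C3ar1 held the AP-1 motif TGANTCA, found in 6.75% of promoters. In all 7 motifs were searched on both strands. C3ar1 also held TATAAA 235 bases before its start (12.4% of promoters) and C5ar1 CCAAT at 158 bases (33.8%), and the IRF motif (2.98%) and TCANGTGA (3.45%) were in no window. These matches describe letters and do not show binding.

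C1q transcripts were higher in plasma-positive microglia before, and not after, correction for exon length and GC content. All 3 chains were called higher by edgeR's quasi-likelihood test, at an adjusted p under 0.05 over all 13277 tested genes, and 0 of the 3 with the correction. Of the 8 tested complement genes, 3 were called higher and 0 lower, where 0.844% of all tested genes (112) were called higher, 0.565% (75) lower and 1.41% in either direction. Scaled by library totals only, 64 were called higher and 163 lower, so the balance of the 2 directions moved with the scaling. With limma on log2(RPKM + 1), which changes the test as well, the numbers were 388 and 59. The median log2 fold change of the 8 was 0.24, against 0.0058 for all tested genes. This is a description only, since C4b could not have passed the expression filter on its plasma-negative libraries alone. These counts include genes that earlier results of the same data had already brought forward.

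C1qb, whose product is the B chain, differed most of the 3 chains before the correction. It was at 7138, 6957, 6961 and 7262 CPM in plasma-negative and 9695, 9282, 8751 and 9932 CPM in plasma-positive replicates 1 to 4. The lowest plasma-positive library lay well above the highest plasma-negative one. This was a rise of 33.0%, or 0.41 ± 0.043 (SE) on the log2 scale (edgeR adjusted p = 0.00162, n = 4 per group). After the correction it was 0.093 and not called (edgeR adjusted p = 0.439).

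C1qc encodes the C chain. Its plasma-negative libraries held 5787, 5575, 5636 and 5920 CPM, and its plasma-positive libraries 6961, 6898, 6863 and 7140 CPM. Again the groups did not overlap, and the plasma-positive libraries lay within a narrow range. This was a rise of 21.6%, or 0.28 ± 0.038 (SE) on the log2 scale (edgeR adjusted p = 0.00489). After the correction it was 0.035 and not called (edgeR adjusted p = 0.79).

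C1qa, the gene of the A chain, differed least of the 3 before the correction. Its values were 6747, 6474, 6287 and 6352 CPM in plasma-negative and 7263, 7361, 7260 and 7633 CPM in plasma-positive libraries. The groups were apart here too, with a smaller step between them. It rose by 14.1%, or 0.19 ± 0.038 (SE) on the log2 scale (edgeR adjusted p = 0.0335). The call was kept only in the fits without plasma-negative replicate 1 or 4. It was lost without plasma-negative replicate 2 or 3 or any one plasma-positive library (edgeR adjusted p between 0.0653 and 0.101 in those 6 fits, 0.0396 at the lowest of the 8), while C1qb and C1qc passed in all 8. With DESeq2's type of scaling factors (RLE) it was 0.17 and with library totals only 0.076, and neither passed (edgeR adjusted p = 0.0583 and 0.445), nor did it without the expression filter (edgeR adjusted p = 0.0933). It was called with upper-quartile factors, the filter at 1 CPM, thinning, DESeq2, voom and limma on both RPKM scales, at adjusted p from 0.00248 (DESeq2) to 0.04 (edgeR after thinning).

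Together the C1q chains took 1.96% to 2.07% of all counts in the plasma-negative group and 2.19% to 2.35% in the plasma-positive group. Summed, they averaged 19274 ± 387 CPM in the plasma-negative and 23759 ± 764 CPM in the plasma-positive group (SD, n = 4), a log2 difference of 0.30 (exact permutation test over 70 assignments, two-sided p = 0.0286, the smallest this design allows). The exon models of the chains are short, at 1040 bases for C1qa, 1088 for C1qb and 1931 for C1qc, where the median tested gene has 3975.5. With library totals only, the summed difference was 0.19. With the correction for exon length and GC content it was 0.012 (exact permutation p = 0.714). C1qa then changed sign, to -0.10 (edgeR adjusted p = 0.346), and no chain was called.

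**Figure D1:**
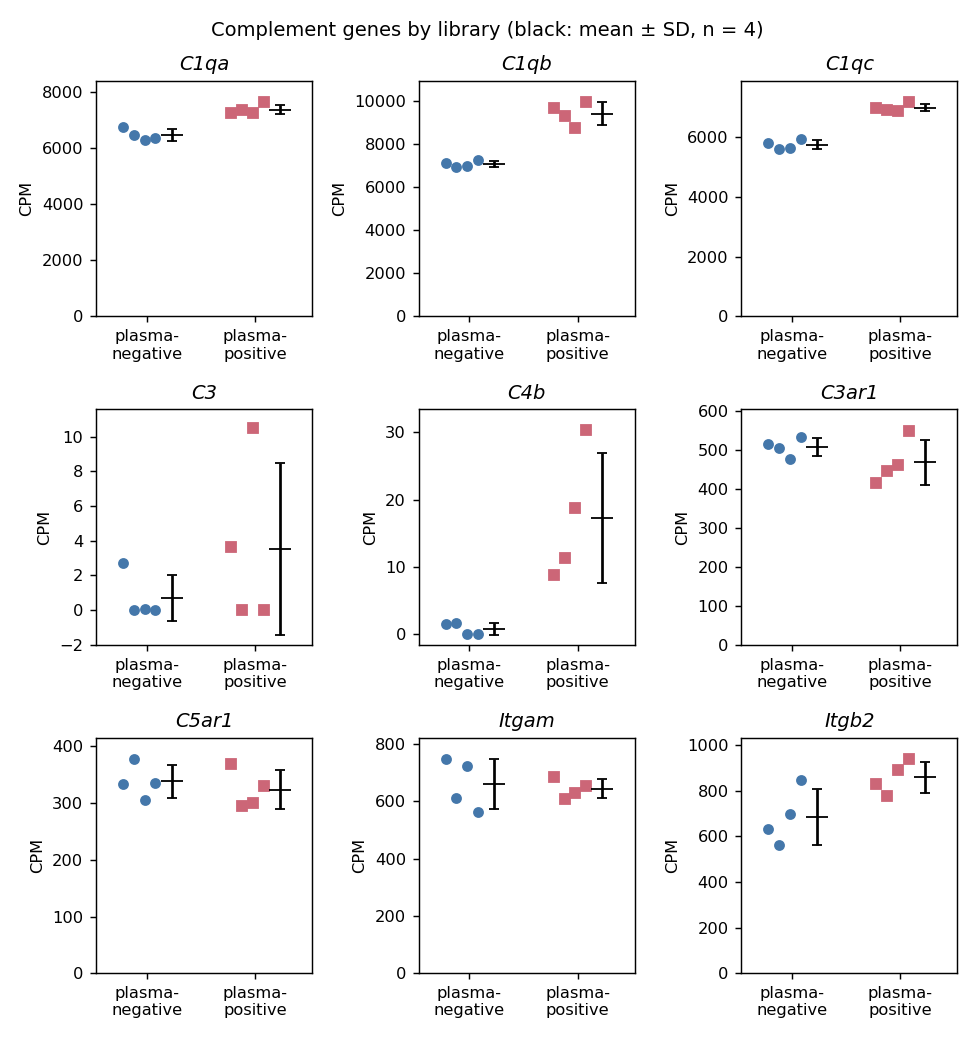
CPM of each complement gene (vertical axes) in plasma-negative (circles) and plasma-positive (squares) libraries, in order of replicate number, with the mean ± SD in black. For C1qa, C1qb, C1qc and C4b the 4 plasma-positive libraries lie above all plasma-negative ones, while C3ar1, C5ar1, Itgam and Itgb2 overlap and C3 is at or near 0 in most libraries.

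The chains did not rise in proportion, and this comparison does not depend on how libraries are scaled. The ratio of C1qb to C1qa read counts in plasma-negative replicates 1 to 4 was 1.06, 1.08, 1.11 and 1.14, and in plasma-positive replicates 1.34, 1.26, 1.21 and 1.30. Every plasma-positive library had the higher ratio. On the log2 scale the means were 0.13 ± 0.05 and 0.35 ± 0.06 (SD, n = 4), a difference of 0.22 or 16.4% (exact permutation p = 0.0286, also after adjustment over the 3 ratios). C1qa and C1qb have similar exon lengths and GC contents of 59.5% and 57.4%. After the correction for these properties the difference was 0.19, with the same exact permutation p of 0.0286. Leaving out any one library gave 0.20 to 0.25, with an exact permutation p of 0.0286 each time, the smallest that 35 assignments allow.

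The ratio of C1qc to C1qa ran 0.858, 0.861, 0.897 and 0.932 across the plasma-negative replicates and 0.958, 0.937, 0.945 and 0.935 across the plasma-positive ones. Here plasma-negative replicate 4 nearly reached the plasma-positive group. The log2 difference was 0.091 (exact permutation p = 0.0286), and 0.14 with the length and GC correction. Without any one of the plasma-positive libraries the exact permutation p was 0.0571, with differences from 0.084 to 0.095 and the groups still apart.

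The ratio of C1qb to C1qc was steady in plasma-negative libraries, at 1.23, 1.25, 1.24 and 1.23, and spread more widely in plasma-positive ones, at 1.39, 1.35, 1.28 and 1.39. The log2 difference was 0.13 (exact permutation p = 0.0286). It was 0.057 with the length and GC correction and the groups then overlapped (exact permutation p = 0.0571). The same p was found without any one of the plasma-negative libraries, at 0.12 to 0.13, with the groups still apart.

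As shares of all C1q reads, C1qb went from 36.7% ± 0.4 to 39.6% ± 1.0 and C1qa from 33.5% ± 0.8 to 31.1% ± 0.6, while C1qc was at 29.7% ± 0.4 and 29.3% ± 0.5 (SD, n = 4). Per length of exon, by the deposited RPKM, C1qb was above C1qa in all 8 libraries, by 1.01 to 1.09 times in the plasma-negative and 1.15 to 1.28 times in the plasma-positive group. C1qc stood at 0.462 to 0.516 of C1qa. After subtracting group means, log2 CPM of C1qb and C1qc had a Pearson correlation of 0.731 over the 8 libraries, C1qa and C1qb 0.419, and C1qa and C1qc 0.365. These are descriptions over few libraries.

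**Figure D2:**
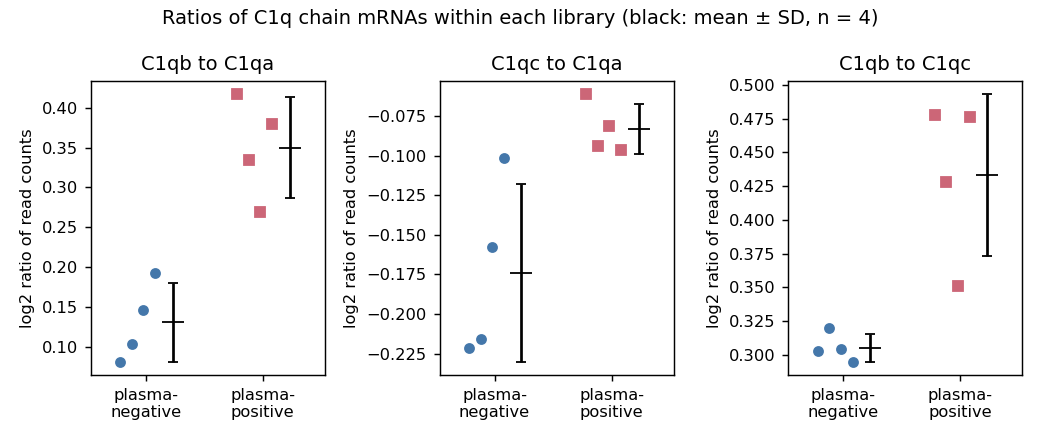
Log2 ratio of the read counts of 2 C1q chains (vertical axes, each with its own range) in plasma-negative (circles) and plasma-positive (squares) libraries, with the mean ± SD in black. The C1qb to C1qa ratio separates the groups most widely, with plasma-negative libraries at 0.08 to 0.19 and plasma-positive libraries at 0.27 to 0.42.

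Downstream of C1q, C4b was nearly absent from plasma-negative libraries and low in plasma-positive ones. C4b (ENSMUSG00000073418, chromosome 17, 34728380 to 34743882) encodes C4, whose cleavage product binds covalently to targets. Plasma-negative libraries held 34, 26, 0 and 0 reads (1.51, 1.64, 0 and 0 CPM), and plasma-positive libraries 80, 223, 370 and 272 reads (8.80, 11.3, 18.8 and 30.4 CPM). No plasma-negative library reached the lowest plasma-positive one. Mean CPM was 0.785 ± 0.909 and 17.3 ± 9.7 (SD, n = 4). The fitted log2 fold change was 4.30 ± 1.07 (SE) and did not pass (edgeR adjusted p = 0.0767). After the length and GC correction it was 4.27. C4b could not have passed the expression filter on its plasma-negative libraries alone, 2 of which were at 0. Its fitted fold over that group is uncertain, and its difference is a description. For the same gene, and with no more weight, DESeq2 gave 4.34 with an adjusted p of 0.000647, and limma called it on log2(RPKM + 1) at 1.56 (adjusted p = 0.0131) and on log2(RPKM + 0.1) at 3.71 (adjusted p = 0.0136), where the totals behind RPKM also differ between groups. A near-identical copy, C4a, was at 0 counts in all libraries, and how reads matching both were treated is not given in the sources used here.

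Groups were apart in the 3 C1q chains, each time with plasma-positive libraries on top, and in C4b, which is not set against a background because of how it passed the filter. Among all tested genes 5.68% had plasma-positive libraries on top, and 10.3% had groups apart in either direction.

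C3, the central component on which all activation routes converge, was nearly absent. C3 (ENSMUSG00000024164, chromosome 17, 57203970 to 57228136) had 61, 0, 1 and 0 reads in plasma-negative and 33, 0, 207 and 0 reads in plasma-positive libraries. It was seen in 2 libraries of each group and failed the filter for testing. Without that filter its log2 fold change was 2.28 (edgeR adjusted p = 0.587). Where a gene had 0 reads, the floor of 3 reads allows a level of up to 0.133 CPM in the deepest library and 1.01 CPM in plasma-negative replicate 4, covering counting error only.

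The library with most C3 was also the one in which the summed neutrophil and monocyte lists were highest. In plasma-positive replicate 3, C3 stood at 10.5 CPM, S100a8 at 299.9, S100a9 at 170.8 and Ngp at 430.4 CPM, while Ly6g and Retnlg were at 0 in all libraries. The monocyte list stood at 49.4 CPM there, with Chil3 at 42.1 and Ly6c2 at 3.05 CPM, both at 0 elsewhere, against 0 to 14.9 CPM in the other libraries. Ccr2, of the same list, was at 0 there and at 3.14, 13.8 and 1.93 CPM in plasma-negative replicates 1 and 2 and plasma-positive replicate 2. Fcnb, the gene of ficolin B, a lectin that starts complement activation, had 219 reads (11.1 CPM) in that library and none elsewhere. The part of other cells in these values was not tested. C4b was highest in plasma-positive replicate 4, where S100a8 was at 0 and the oligodendrocyte and neuron lists were at 221.9 and 5.36 CPM. The border macrophage list was highest in that library, at 16.5 CPM with Mrc1 at 15.3 CPM, against 0.881 to 3.61 CPM in plasma-negative and 1.76, 12.8 and 1.98 CPM in the other plasma-positive libraries. Of its 8 genes, 4 (Cd163, Lyve1, Cd209f and F13a1) were at 0 in all libraries. Gfap, an astrocyte marker, was at 4.80 CPM there, 1.58 CPM in plasma-positive replicate 2 and 6.86 CPM in plasma-negative replicate 1, and at 0 elsewhere. The part of these cells in the C4b values was not tested. Over all plasma-positive libraries the oligodendrocyte list ran from 221.9 to 532.6 CPM, against 157.7 to 230.4 in plasma-negative ones, and the astrocyte list from 208.1 to 297.8 against 213.6 to 326.7. Slc1a3 gave most of the astrocyte sum, at 238 ± 54 CPM in the plasma-negative and 185 ± 15 CPM in the plasma-positive group (SD, n = 4). Slc1a2 was at 3.6 ± 3.1 and 22.6 ± 31.1 CPM and Aldoc at 5.8 ± 3.4 and 17.6 ± 16.3 CPM, neither called (edgeR adjusted p = 0.323 and 0.298). Both were highest in plasma-positive replicate 2, at 67.5 and 42.0 CPM, and stood at 2.23 and 9.50 CPM in replicate 4. Gja1 was at 0.67 ± 1.34 and 3.48 ± 4.22 CPM, and Aldh1l1 at 0 and 2.61 ± 2.92 CPM. Their part in the C4b values was not tested. Without plasma-positive replicate 3, C1qb and C1qc were still called and the C1qb to C1qa difference was 0.25.

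**Figure D3:**
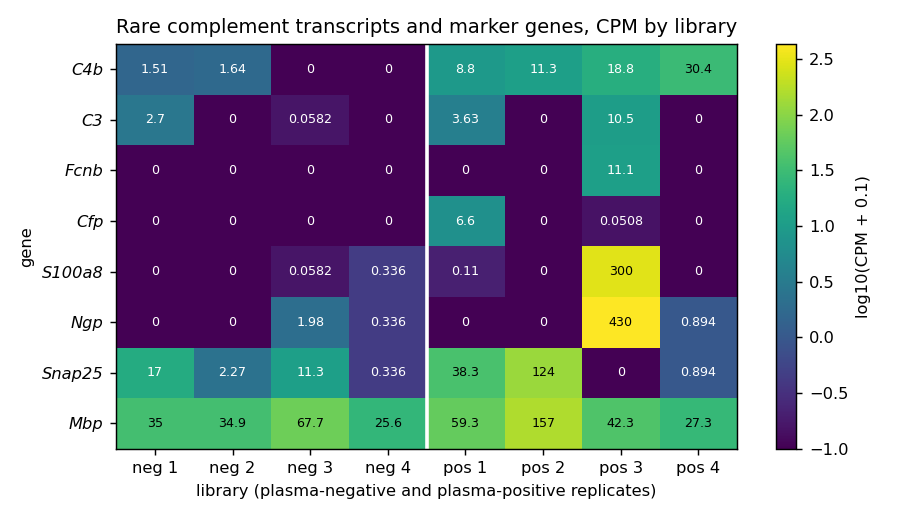
CPM by library (columns) of rarely detected complement genes and of markers of neutrophils (S100a8, Ngp), neurons (Snap25) and oligodendrocytes (Mbp) in rows, coloured on a log10 scale after adding 0.1 and with the CPM printed in each cell. C4b is present in all 4 plasma-positive libraries, while C3, Fcnb, S100a8 and Ngp peak in plasma-positive replicate 3.

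The receptor genes were well expressed, and none was called. C3ar1 (ENSMUSG00000040552, chromosome 6, 122847138 to 122856161), the receptor for the C3a fragment, was at 515.5, 505.5, 477.3 and 532.3 CPM in plasma-negative and 416.4, 447.4, 460.3 and 549.0 CPM in plasma-positive libraries. In plasma-positive libraries 3 lay below all plasma-negative ones and replicate 4 lay above them. The log2 fold change was -0.12, with a 95% interval from -0.33 to 0.10 (edgeR adjusted p = 0.683), and -0.19 with the correction (edgeR adjusted p = 0.53).

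C5ar1 (ENSMUSG00000049130, chromosome 7, 16246743 to 16259540) encodes the receptor for C5a, a chemoattractant. It was at 333.8, 377.0, 305.5 and 335.8 CPM in plasma-negative and 369.3, 294.5, 300.2 and 330.0 CPM in plasma-positive libraries, with overlapping ranges. On the log2 scale it differed by -0.064, with a 95% interval from -0.30 to 0.18 (edgeR adjusted p = 0.87). After the correction it was lower by more, at -0.26, and was not called (edgeR adjusted p = 0.417).

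Itgam and Itgb2 encode the alpha and beta chains of complement receptor 3, CD11b and CD18, which binds C3 fragments. Itgam (ENSMUSG00000030786, chromosome 7, 128062640 to 128118491) was at 746.4, 612.8, 723.3 and 561.9 CPM in plasma-negative and 684.2, 609.1, 629.7 and 652.9 CPM in plasma-positive libraries. The plasma-positive values lay inside the plasma-negative range. On the log2 scale it differed by -0.039, with a 95% interval from -0.26 to 0.18 (edgeR adjusted p = 0.92), and -0.086 with the correction, again not called. Gm49368 shares a fraction of 0.687 of its exon length, so reads of the pair cannot be told apart there.

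Itgb2 (ENSMUSG00000000290, chromosome 10, 77530252 to 77565708) was at 632.0, 562.0, 700.1 and 847.3 CPM in plasma-negative and 828.2, 778.0, 889.9 and 937.9 CPM in plasma-positive libraries. Only plasma-negative replicate 4 reached into the plasma-positive range. The log2 fold change was 0.33, with a 95% interval from 0.067 to 0.59, and did not pass (edgeR adjusted p = 0.233). Without plasma-negative replicate 4 it was 0.45 (edgeR adjusted p = 0.0608), and with the length and GC correction 0.12.

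In every library the order of levels per exon length was C1qb, C1qa, C1qc and Itgb2, then the other receptors, then C4b and C3 in either order. By RPKM averaged over the 8 libraries, C1qb ranked 3, C1qa 4 and C1qc 12 among all 35583 genes, Itgb2 130, Itgam 279, C5ar1 286 and C3ar1 321. Itgam (83.7 to 108.9 RPKM), C5ar1 (86.1 to 115.0) and C3ar1 (77.4 to 98.7) overlapped across libraries, were not separated by their spread and changed places between libraries. C4b reached at most 4.13 and C3 at most 1.64 RPKM. RPKM is used here for levels within a library, and between groups only as an alternative test, since gene counts made up 68.9% to 74.6% of the total used for that scaling in the plasma-negative and 81.4% to 84.2% in the plasma-positive group.

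Beyond these genes, 54 other complement genes in 5 roles were listed. Of these, 13 had enough reads to be tested, 0 were called higher and 1 was called lower, where 1.41% of all tested genes were called. The median log2 fold change of the 13 was -0.094. In all 8 libraries 19 of the 54 had 0 reads, as did 15739 of all 35583 genes. Among the 19 were the terminal components C6, C7, C8a, C8b and C9.

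The called gene was Csmd3 (ENSMUSG00000022311, chromosome 15, 47580637 to 48792063), which encodes a large membrane protein built of the CUB and sushi domains found in complement regulators. It went from 222 ± 42 to 131 ± 16 CPM (SD, n = 4) with groups apart, or -0.77 ± 0.16 (SE) on the log2 scale (edgeR adjusted p = 0.0354). Its exons span 16882 bases. With the length and GC correction it was -0.29 (edgeR adjusted p = 0.507), and the call was lost in 7 of the 8 fits without one library, all but that without plasma-negative replicate 4.

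Among regulators, Cr1l, the rodent membrane regulator Crry, was at 135 ± 17 CPM in plasma-negative and 117 ± 18 CPM in plasma-positive libraries (SD, n = 4). Its log2 fold change was -0.21 with a 95% interval from -0.55 to 0.13. It was not called (edgeR adjusted p = 0.623), and turned positive after the length and GC correction, at 0.089. Clu, the gene of clusterin, an inhibitor of the terminal complex, was at 0 to 7.35 CPM in plasma-negative and 0.0508 to 20.3 CPM in plasma-positive libraries (log2 fold change 1.58, edgeR adjusted p = 0.706). Cd59a, another inhibitor of that complex, had 0 reads in all plasma-negative and 8, 4, 5 and 12 reads in plasma-positive libraries, too few to be tested. Vtn had 2 reads in 1 plasma-negative library and 5, 47, 37 and 0 in plasma-positive ones.

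C5ar2, the second C5a receptor, was at 193 ± 23 and 206 ± 38 CPM (SD, n = 4), with a log2 fold change of 0.088 and a 95% interval from -0.24 to 0.42 (edgeR adjusted p = 0.869), and -0.063 with the correction. Calr, the gene of calreticulin, a chaperone that can bind C1q, was at 691 ± 35 and 692 ± 23 CPM, with an interval from -0.16 to 0.16 (edgeR adjusted p = 0.991). With the correction Calr was at -0.19 (edgeR adjusted p = 0.353). C1qbp, named for its binding to C1q globular heads, was at 69.1 ± 9.3 and 84.5 ± 7.9 CPM, with an interval from -0.08 to 0.66 (edgeR adjusted p = 0.501), and a log2 fold change of 0.29, or 0.083 with the correction.

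Of the 12 other listed genes that start the cascade, 5 were at 0 in all libraries, about the share over all genes (15739 of 35583). The proteases C1rb, C1s2 and the lectins Mbl1, Fcna and Colec10 had 0 reads throughout, C1ra at most 36 and C1s1 at most 7. Masp1 and Masp2, proteases of the lectin pathway, were at 8.2 ± 10.0 and 2.5 ± 2.1 CPM in plasma-negative and 5.3 ± 3.7 and 0.71 ± 0.67 CPM in plasma-positive libraries (SD, n = 4; edgeR adjusted p = 0.86 and 0.54). Masp2 shares a fraction of 0.549 of its exons with Tardbp. In the alternative and terminal pathways C8g was at 0 to 0.757 CPM in the plasma-negative and 0.335 to 3.30 CPM in the plasma-positive group (log2 fold change 2.13, edgeR adjusted p = 0.598). Cfp, the gene of properdin, had 60 reads in plasma-positive replicate 1, 1 in replicate 3 and 0 elsewhere, and Cfb at most 17 reads.

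**Figure D4:**
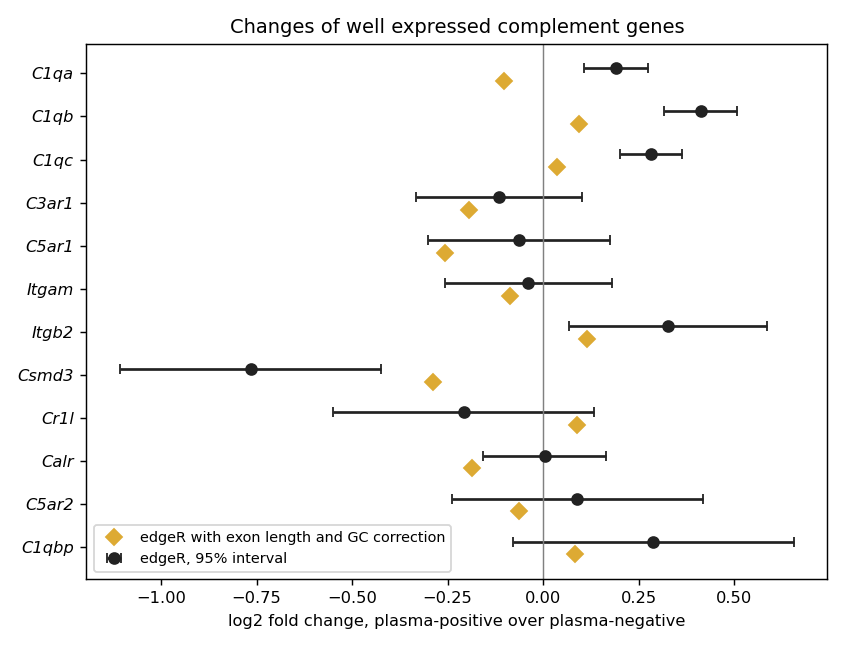
Log2 fold change of plasma-positive over plasma-negative libraries (horizontal axis) for 7 of the 9 complement genes and 5 others named in the text. Those 5 are at 64 CPM or more, and not every listed gene at that level is shown. Circles give edgeR's value with its 95% interval, and diamonds the value after correction for exon length and GC content. The C1q intervals lie above 0, Csmd3 lies below 0 at -0.77, and the diamonds lie closer to 0 for the C1q chains, Itgb2, C1qbp and Csmd3 and farther below 0 for C3ar1, C5ar1 and Itgam, while Calr moves from 0.0033 to -0.19.

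Over the 8 libraries, the genes whose log2 CPM was most like the mean of the C1q chains, among 2747 genes of at least 64 CPM, were Grn, Eef1a1, Psap, Gm45713 and Ctsd, with Pearson correlations of 0.988, 0.986, 0.984, 0.981 and 0.978. Their log2 fold changes without the length and GC correction were 0.31, 0.51, 0.43, 0.52 and 0.25. All have exon models under the median of tested genes (3975.5 bases), at 3474, 2493, 2744, 1477 and 2351 bases. The part of length in this likeness was not tested. The 8 points are 2 groups of 4 that lie apart, so the likeness mostly restates a difference between groups, and the exons of Gm45713 lie wholly within those of other genes, Rpl13a among them. After subtracting group means the most similar genes were Unc50, Ang, Ginm1, Srd5a3 and Twf2, at 0.946, 0.942, 0.926, 0.921 and 0.901, with no gene in common with the first 5.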

How the data were processed

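RNA sequencing of 8 libraries, 4 per group, was used as deposited. Whole-number counts of reads for each gene make up one deposited table. A second deposited table gives RPKM for the same genes, scaled for length and total. Per the file headers, both were made from alignments filtered to top hits. The submitters' processing notes name Trim Galore, STAR, HTSeq and build mm10; versions, strand and multi-mapping settings are not given in the sources used here. Of 35583 gene identifiers, 99.9% were in GENCODE M21 (GRCm38), which gave exon lengths, transcript GC and overlaps.

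Counts were tested with edgeR 4.0.16 (R 4.3.3): TMM factors, default expression filter by group, quasi-likelihood F test of group, Benjamini-Hochberg adjustment over 13277 genes, threshold 0.05. CPM uses TMM-scaled totals. SE was taken as log2 fold change over the root of F. Intervals use its t quantile at 95%. For single values, exact permutation tests (two-sided) ran over all 70 assignments. The correction fits a loess (span 0.3) of each library's log2 CPM (prior count 2) on exon length and GC, from genes of at least 32 CPM. Depth was 2963094 to 21422738 counts, and reads without identifiers may be PCR copies.

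The 9 genes, the 54 further complement genes and the marker lists were chosen with earlier results of these data known. The text names all 9, every called gene of the 54, the 3 highest by RPKM in each role (1 of these is not reported here), and the 5 most similar genes by each measure; C1ra, C1s1 and genes at 0 were named after their values were seen. Libraries of the same replicate number deviated from group means with correlations of 0.0119, 0.0126, 0.0109 and 0.0315 across genes, so the numbers were not taken as pairs. In simulated counts for 13277 genes with a log2 change of 1, 37 of 192 changed genes were called, each in the true direction, and 1 unchanged gene was. At 256 CPM or more 13 of 13 were called. With a trend linear in log2 exon length added to all plasma-positive libraries alike, false calls were 155 without and 0 with the correction. True calls were 52 and 43 of 194, and 12 of 13 at 256 CPM or more in both. Changes under 1, as in the C1q chains, were not simulated, nor were changes confined to short genes. Alternatives were other scalings and filters, DESeq2 1.42.0, limma 3.58.1 on counts (voom) and on log2(RPKM + 1) and log2(RPKM + 0.1), the replicate number as a block, thinning to the smallest total, and leaving out each library.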

Additional observations from a re-analysis of the deposited data

Results flagged for a closer look

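In 51 groups of 4 libraries with any spread, 5 held a value far from the other 3, where chance gives about 5% for values that vary smoothly. That rate does not apply here: for Fcnb, Cfb and Vtn the other 3 libraries were all at 0, so any read is flagged, and for C3 and Cfp nearly so. C3 was at 2.70 CPM in plasma-negative replicate 1, from 61 reads, against at most 0.058 in the others of its group. In plasma-positive libraries Fcnb was at 11.1 CPM in replicate 3, from 219 reads, against 0, Cfp at 6.60 CPM in replicate 1, from 60 reads, against at most 0.051, and Cfb at 0.305 CPM in replicate 2, from 6 reads, against 0. Vtn was at 0.0886 CPM in plasma-negative replicate 1, from 2 reads, against 0. The Fcnb value stands in the library that also held S100a8 at 299.9 CPM, and the part of other cells in it was not tested.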

How the results depend on the processing

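C1qb and C1qc were called under every alternative but the length and GC correction, with or without the block. The summed C1q difference was then 0.0124 (exact permutation p = 0.714) and the C1qb to C1qc ratio difference 0.057 (exact permutation p = 0.0571). All genes called, 187 as reported, numbered 963 with DESeq2, 447 and 432 with limma on log2(RPKM + 1) and log2(RPKM + 0.1), 74 with the replicate block, 64 with the length and GC correction and 7 with both. Of the 9 genes, 3 were called as reported, 4 with DESeq2 and limma on either RPKM scale (C4b added), 2 with RLE factors, totals only, no filter or the block (C1qa lost) and 0 with the correction, alone or with the block. Of the 54 others, 1 was called as reported and 0 with limma on either RPKM scale, the block, the correction or both. Leaving out single libraries gave 66 to 203 calls over all genes, 2 to 3 of the 9 and 0 to 1 of the 54. Only without plasma-negative replicate 4 was the count over all genes within 1.5 times. The same fits gave 0.197 to 0.246 for the ratio of C1qb to C1qa, 0.0752 to 0.115 for C1qc to C1qa, 0.113 to 0.155 for C1qb to C1qc and 0.283 to 0.32 for summed CPM.

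Sign flips within replicate numbers, as the block for single values, cannot give a p under 0.125 with 4 pairs. They gave 0.219, 0.0909, 0.128 and 0.302 for the ratios of C1qb to C1qa, C1qc to C1qa and C1qb to C1qc and the sum (exact p = 0.125 each), and with the correction 0.194, 0.137, 0.057 and 0.0124 (exact p = 0.625 for the sum, 0.125 for the others). With the block C1qa was no longer called (edgeR adjusted p = 0.076). The numbers do not show that the libraries are paired.

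Signs changed for C1qa and for 7 genes that were not called in any of these fits. C1qa was -0.102 with the correction, with and without the block. On log2(RPKM + 1) and log2(RPKM + 0.1), C3ar1 was 0.003 in both, C5ar1 0.0601 and 0.0607, and Itgam 0.0955 and 0.0964. With the correction and then also the block, Cr1l was 0.0894 and 0.0823, Calr -0.186 in both, and C5ar2 -0.0633 and -0.0729. Calr was -0.0203 with RLE factors, -0.11 with totals only, -0.0176 with DESeq2 and -0.021 after thinning. C5ar2 was -0.03 with totals only. Masp1 was 0.122 with voom, 0.0138 on log2(RPKM + 0.1), 0.125 with the replicate block and 0.321 with block and correction. Leaving out single libraries gave -0.106 to 0.024 for Itgam, -1.12 to 0.664 for Masp1, -0.0193 to 0.0383 for Calr and -0.0304 to 0.177 for C5ar2. The median over all genes was -0.11 with totals only, 0.106 on log2(RPKM + 1) and 0.163 on log2(RPKM + 0.1). The causes were not tested. With all libraries thinned to the smallest total, C4b was at 3.61 (edgeR adjusted p = 0.0585). In plasma-negative replicate 4, 0 reads allow up to 1.01 CPM.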

Other observations

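Plasma-negative replicate 4, the smallest library, was the one of its group nearest to the plasma-positive libraries in several of these measures. Its ratio of C1qb to C1qa was 1.14, against 1.06 to 1.11 in the other plasma-negative libraries. Its ratio of C1qc to C1qa was 0.932, against 0.858 to 0.897. The ratio of Itgb2 to Itgam counts was 1.51 in it, 0.847, 0.917 and 0.968 in the other plasma-negative libraries and 1.21, 1.28, 1.41 and 1.44 in plasma-positive ones. Its ratio of C1qb to C1qc, at 1.23, was the lowest of its group, and C4b had 0 reads there. The ratio of the receptor chains was looked at after its values were seen and was not tested.

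Itgax, the alpha chain that pairs with the Itgb2 product in complement receptor 4, was at 6.55, 1.70, 9.96 and 0 CPM in plasma-negative and 13.4, 19.6, 10.6 and 20.7 CPM in plasma-positive libraries. The groups did not overlap, but Itgax passed the expression filter only with the plasma-positive libraries, so this is a description. The log2 fold change of 1.77 did not pass (edgeR adjusted p = 0.384). It was named after its values were seen.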
